A study of Mus musculus with 6 samples.

Results

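The PARP family genes encode ADP-ribosyltransferases, enzymes that use NAD to attach ADP-ribose to proteins, and Dtx3l encodes a ubiquitin ligase of the deltex family that works as a partner of PARP9. The transcripts of these genes were described in Ba/F3 cells labelled ETV6::FRK(+) or ETV6::FRK(-), groups that also differ in doxycycline and in the IL3 mark of their titles. The members were taken by gene symbol from a list of 10 names, and 8 of the 10 have a row among the 14238 genes of the table. Of 6 interferon-linked members 5 have a row (Parp9, Parp10, Parp11, Parp14 and Dtx3l), and all 3 DNA repair members have one (Parp1, Parp2 and Parp3). Parp12, an interferon-linked member, and Parp8, put in neither group, were not analysed here. All 8 passed the filter on low counts.

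PARP1 and PARP2 are recruited to DNA strand breaks, where they build chains of ADP-ribose that gather repair proteins, and PARP3 also acts at strand breaks. Most other family members add single ADP-ribose units or have lost the enzyme activity. Several of these, with DTX3L, are known as interferon-stimulated genes, transcribed when interferon receptors signal to the nucleus.

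Ba/F3, an established line of mouse pro-B cells, depends on interleukin-3 for growth. RNA was sequenced with a strand-specific mRNA kit. The 3 induced cultures were Ba/F3 cells transduced with ETV6::FRK, a fusion of a transcription factor with a tyrosine kinase, in the Retro-X Tet-On Advanced system, and they received 500 ng/ml doxycycline. The 3 control cultures carried the same construct and received no doxycycline, and RNA was taken at 48 h in both groups. The titles mark induced cultures DOXp-IL3n and control cultures DOXn-IL3p, so effects of doxycycline, of the fusion and of what IL3p and IL3n denote cannot be told apart. Cultures 1, 2 and 3 of each group carry the prefixes EF1, EF2 and EFPC, which are used as names of the pairs below; what the prefixes mean is not given. The labels speak of triplicate cultures without saying that they were set up independently, so the p-values reflect spread among these cultures only, which may be technical.

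Libraries held 31138705 to 43177842 counted reads in the induced group and 30970019 to 40179759 in the control group. Etv6, the mouse gene of 1 fusion partner, had 259, 229.9 and 120.2 CPM in induced EF1, EF2 and EFPC, against 86.2, 81.3 and 94.6 CPM in the controls, so the induced EFPC library stood nearest to the controls in this gene. Whether the fusion transcript adds reads to Etv6 is not known from the files. Of 9 B lineage markers looked for, only Cd79a and Cd79b had a row, with a summed 5.75 to 13.8 CPM in induced and 12.3 to 16.9 CPM in control libraries, and Pax5 and Ebf1 were not analysed here. Of 7 progenitor markers 5 had a row, with a summed 3065 to 4904 CPM in induced and 2272 to 2337 CPM in control libraries. In induced EF1 and EF2 that difference was mostly Csf2rb, the common beta chain of the interleukin-3 receptor. Csf2rb had 3692, 3740 and 1306 CPM in induced EF1, EF2 and EFPC, against 886 to 947 CPM in the controls. Ptprc had 365, 381 and 470 CPM in induced EF1, EF2 and EFPC, against 288 to 294 CPM in the controls. Gata2 went the other way in induced EF1 and EF2, at 652 and 668 CPM, with 1194 CPM in induced EFPC, against 996 to 1017 CPM in the controls. None of 6 T and NK cell markers had a row, and the 4 of 6 macrophage markers with a row summed to 16.1 to 36.2 CPM in induced and 26.2 to 45.4 CPM in control libraries. The single fibroblast marker with a row of 6, Col1a1, stayed at 0.383 to 0.656 CPM in induced and 0.125 to 0.714 CPM in control libraries.

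The 5 interferon-linked genes rose by DESeq2, and the 3 repair genes did not pass that test of induced over control cells, although DESeq2 with the culture pairs as a block called the repair gene Parp3 higher (adjusted p = 0.0285). By DESeq2 with Benjamini-Hochberg adjustment over the whole table, 5 of 5 interferon-linked genes were called higher, where 4.25% of the genes tested were called higher and 2.65% lower. Of these 5, DESeq2 called 2 without control EFPC, 3 without induced EF1, 4 without induced EF2 and 4 without control EF2, 1 without both EF1 libraries and 0 without both EF2 libraries. The median log2 fold change by edgeR was 2.46 for the interferon-linked genes, -0.25 for the repair genes and -0.01 for all 13260 genes tested. By edgeR's quasi-likelihood test, the main test here, 0 genes of the table and 0 members were called (0%), while 2329 genes, 6 members among them, had an unadjusted p under 0.05. Calls of induced over control cells below are therefore DESeq2 calls, with all 6 libraries, that edgeR did not make. In bulk RNA, more cells that express a gene and more RNA per cell cannot be told apart.

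Parp14, which encodes a macrodomain protein known as a cofactor of STAT6 in the interleukin-4 response, had the highest fold change of the members (chr16:35831892-35871518, build GRCm38). It had 601, 343 and 56.7 CPM in induced EF1, EF2 and EFPC, against 35.5, 31.6 and 32.1 CPM in control EF1, EF2 and EFPC. All 3 induced libraries lay above all 3 controls, but induced EFPC was much closer to the controls than to the other induced libraries. The mean was 334 ± 272 CPM in induced and 33.1 ± 2.10 CPM in control cells (SD, n = 3 each), or 3.35 log2 units by DESeq2 (SE 0.613), and the adjusted p was 1.08e-05 by DESeq2 and 0.153 by edgeR. The DESeq2 call was lost without induced EF2 (adjusted p = 0.0604) and without both EF2 libraries (adjusted p = 0.353).

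Dtx3l and Parp9 encode the partners of a complex that ubiquitinates histones. Dtx3l (chr16:35926515-35939027) had 515, 312 and 74.1 CPM in induced EF1, EF2 and EFPC, against 60.1, 50.2 and 53.4 CPM in the controls. Parp9 (chr16:35938470-35972621) had 239, 153 and 33.2 CPM in induced EF1, EF2 and EFPC, against 23.05, 24.6 and 19.96 CPM in the controls. Neither gene's groups overlapped, and both had their lowest induced value in EFPC. The DESeq2 log2 fold changes were 2.48 (SE 0.542, adjusted p = 4.43e-04) for Dtx3l and 2.67 (SE 0.551, adjusted p = 1.64e-04) for Parp9, with edgeR adjusted p of 0.161 and 0.159. Without control EFPC the DESeq2 adjusted p was 0.0623 for Dtx3l and 0.0511 for Parp9. Without both EF1 libraries it was 0.171 and 0.133, and without both EF2 libraries 0.531 and 0.438.

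The Dtx3l and Parp9 genes lie head to head on opposite strands and overlap by 558 bases. Use of strand in the counting was not given in the sources used here, so reads from the overlap may be shared. On a per-length scale, the authors' TPM of Parp9 came to 0.741, 0.784 and 0.708 of that of Dtx3l in induced EF1, EF2 and EFPC, against 0.573, 0.714 and 0.579 in the controls. In the EF1 and EF2 pairs the ratio moved far less than either level, while in the EFPC pair Dtx3l itself had only 29.3 TPM in induced and 20.8 TPM in control cells.

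Parp10 encodes a mono-ADP-ribosyltransferase and lies on another chromosome (chr15:76232995-76243440). It had 242, 155 and 29.9 CPM in induced EF1, EF2 and EFPC, against 30.8, 32.3 and 19.3 CPM in the controls. Its groups overlapped, since induced EFPC lay below control EF1 and EF2. The mean was 142 ± 107 CPM in induced and 27.5 ± 7.11 CPM in control cells (SD, n = 3 each), or 2.39 log2 units by DESeq2 (SE 0.585), and the adjusted p was 0.00234 by DESeq2 and 0.176 by edgeR. The DESeq2 call was lost without induced EF1 (adjusted p = 0.0911), control EF2 (0.139) or control EFPC (0.132), without both EF1 libraries (0.349) and without both EF2 libraries (0.584). An annotated exon of Plec overlaps it on the same strand, and Plec had 97.8, 95.8 and 218 CPM in induced EF1, EF2 and EFPC, against 108, 87.1 and 153 CPM in the controls, so Plec was highest in EFPC in both groups, where Parp10 was lowest.

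Parp11, a mono-ADP-ribosyltransferase gene (chr6:127446830-127514233), had 144, 90.6 and 24.8 CPM in induced EF1, EF2 and EFPC, against 20.6, 20.6 and 14.9 CPM in the controls. The groups did not overlap. By DESeq2 it differed by 2.23 log2 units (SE 0.519), and the adjusted p was 0.00119 by DESeq2 and 0.161 by edgeR. The DESeq2 call was lost without induced EF1 (adjusted p = 0.0534), without both EF1 libraries (0.282) and without both EF2 libraries (0.0925).

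Promoter sequences are shown for Parp11, the only member with a match to either of the motifs searched, and for Parp1, a repair member without one. Each is the 250 bases before the transcript start of the RefSeq promoter entry on GRCm38.p6, 5′ to 3′ on the strand of the gene, and neither overlaps an annotated exon in GENCODE. For Parp11 that start lies just inside the gene span given above. The Parp11 window is chr6:127446590-127446839 and the Parp1 window chr1:180568641-180568890, both on the plus strand. Capitals mark 2 overlapping matches.
Parp11: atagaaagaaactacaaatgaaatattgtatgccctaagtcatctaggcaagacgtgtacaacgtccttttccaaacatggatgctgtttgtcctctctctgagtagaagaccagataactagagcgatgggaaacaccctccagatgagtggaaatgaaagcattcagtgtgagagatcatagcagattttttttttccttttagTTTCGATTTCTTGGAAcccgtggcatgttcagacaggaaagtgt
Parp1: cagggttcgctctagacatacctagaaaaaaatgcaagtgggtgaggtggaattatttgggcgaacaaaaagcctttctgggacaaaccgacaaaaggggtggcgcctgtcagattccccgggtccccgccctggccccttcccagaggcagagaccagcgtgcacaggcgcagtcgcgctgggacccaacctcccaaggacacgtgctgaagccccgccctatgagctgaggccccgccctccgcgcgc
The motifs were the core of the interferon-stimulated response element, spelled GAAA, any 2 bases and GAAA again, and TTCNNNGAA, the core of a STAT site, each on both strands. In Parp11 the first was read on the other strand as TTTCGATTTC, from 44 bases before the start of that entry, and TTCTTGGAA follows from 37 bases before the start and shares 3 letters with it. Of all 32851 promoter entries, 3.44% held the first motif and 8.3% the second, over the whole entry of 250 bases before to 50 after the start. The reference held 6 entries for 5 members, and no match was in those of Dtx3l, Parp1, Parp2 and Parp3 or in the second entry of Parp11. Parp9, Parp10 and Parp14 were not searched. The GC content was 40.4% in the Parp11 window and 61.6% in the Parp1 window.

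The DNA repair members had small differences. Parp1, the main sensor of strand breaks (chr1:180568891-180600999), had 172, 148 and 252 CPM in induced EF1, EF2 and EFPC, against 265, 162 and 314 CPM in the controls. Both EFPC libraries were the highest of their group and both EF2 libraries the lowest. Its log2 fold change was -0.36 (SE 0.321, adjusted p = 0.588) by DESeq2, and the groups overlapped. Parp2 (chr14:50807897-50821301) had 61.3, 55.4 and 73.3 CPM in induced EF1, EF2 and EFPC, against 76.0, 70.3 and 80.4 CPM in the controls, which DESeq2 put at -0.24 log2 units (SE 0.186, adjusted p = 0.511 by DESeq2). The adjusted p of both lay between 0.140 and 0.999 over 26 fits with edgeR, DESeq2 and limma.

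Parp3, which acts with end-joining factors (chr9:106470322-106476949), had the opposite sign. It had 16.8, 11.8 and 16.9 CPM in induced EF1, EF2 and EFPC, against 8.12, 8.63 and 11.1 CPM in the controls. Every induced library lay above every control, with induced EF2 close to control EFPC. The mean was 15.2 ± 2.91 CPM in induced and 9.27 ± 1.57 CPM in control cells (SD, n = 3 each), or 0.72 log2 units by DESeq2 (SE 0.254), which did not pass by DESeq2 (adjusted p = 0.0585) or edgeR (0.191). With the replicate block, which takes each pair as a unit, DESeq2 called it higher (adjusted p = 0.0285), where 6.4% of genes were called higher and 4.73% lower. It was also called by DESeq2 without induced EF2 (0.0296), control EFPC (0.0154) or both EFPC libraries (0.0190), and its adjusted p reached 0.999 without both EF1 libraries. An exon of Rrp9 overlaps it on the other strand, and Rrp9 averaged 55.4 ± 4.69 CPM in induced and 51.1 ± 8.92 CPM in control cells (SD, n = 3 each). In all, the induced libraries lay above the controls without overlap for 4 of 5 interferon-linked genes and 1 of 3 repair genes, against 11.2% of all genes tested.

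**Figure D1:**
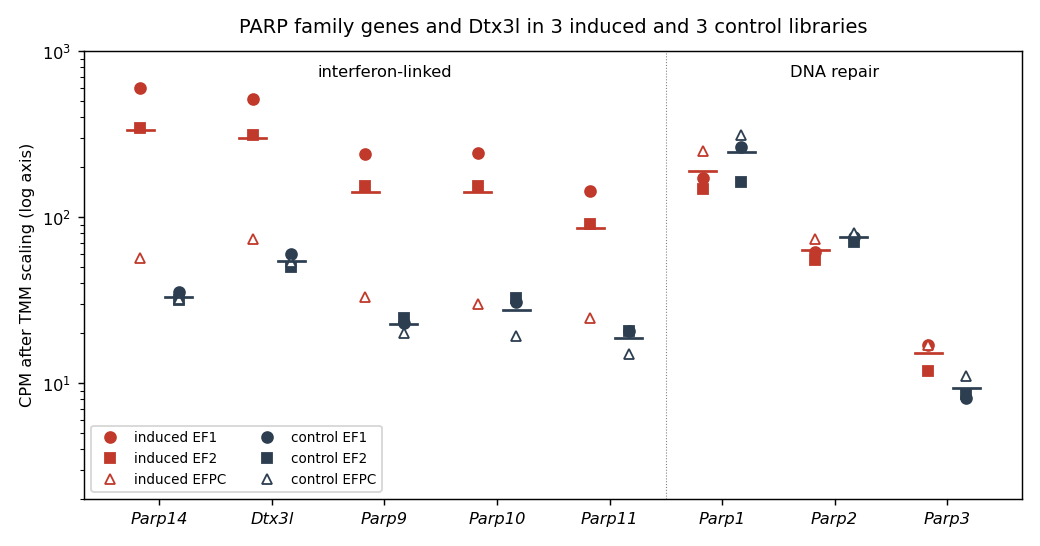
CPM after TMM scaling, on a log axis, of 8 members in each library; circles, squares and open triangles are EF1, EF2 and EFPC, bars are group means, and induced libraries stand left of controls. The induced EF1 and EF2 libraries lie far above the controls in the 5 interferon-linked genes, and the induced EFPC library at 24.8 to 74.1 CPM lies close to them.

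The size of the difference was compared between culture pairs, since the EFPC titles carry another kind of prefix. Within pairs the interferon-linked genes had log2 differences of induced minus control of 0.47 to 0.82 in the EFPC pair, against 2.81 to 4.08 in the EF1 pair and 2.13 to 3.44 in the EF2 pair. The medians were 0.73 in the EFPC pair, 3.10 in the EF1 pair and 2.63 in the EF2 pair, beside medians of all genes of -0.02, -0.04 and -0.01 in those pairs. At a limit of 1.5 times the control, 4 of 5 interferon-linked genes passed in the EFPC pair, 5 in the EF1 pair and 5 in the EF2 pair, where 11%, 13.7% and 18.3% of all genes did. Dtx3l was the one below it, at 1.39 times control in the EFPC pair.

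The difference itself was tested in edgeR with terms for the pair, the group and the group within EFPC, which leaves 1 residual degree of freedom and rests on a single EFPC pair. All 5 interferon-linked genes had a smaller difference in the EFPC pair, where 6.41% of the genes tested did and 3.1% had a larger one. The EFPC difference minus that of the other pairs was -2.94 log2 units for Parp14 (SE 0.302, edgeR adjusted p = 2.39e-08). Dtx3l had -2.40 (adjusted p = 4.46e-07), Parp9 -2.27 (6.82e-06), Parp10 -1.99 (4.44e-05) and Parp11 -1.74 (1.42e-04) by the same edgeR test. DESeq2 called the same 5 with these terms.

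The repair genes were not called in that comparison, with values of 0.06 (SE 0.279) for Parp1, 0.19 (SE 0.278) for Parp2 and -0.15 (SE 0.353) for Parp3 and edgeR adjusted p of 0.934, 0.770 and 0.872. Parp3 had log2 differences of 0.60 in the EFPC pair, against 1.05 and 0.45 in the EF1 and EF2 pairs. In the EFPC pair it therefore stood among the interferon-linked genes, which ranged from 0.47 to 0.82 there. Parp2 was negative in all pairs, at -0.13 in the EFPC pair, against -0.31 and -0.34 in the EF1 and EF2 pairs. Parp1 was at -0.32 in the EFPC pair, against -0.63 and -0.13 in the EF1 and EF2 pairs, and its EF2 value became 0.06 on the authors' TPM scale, on which the median of all genes in that pair moved by 0.19. Etv6 moved with the interferon-linked genes, with a log2 difference of 0.34 in the EFPC pair, against 1.59 and 1.5 in the EF1 and EF2 pairs; the part of the fusion's level in these differences was not tested.

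**Figure D2:**
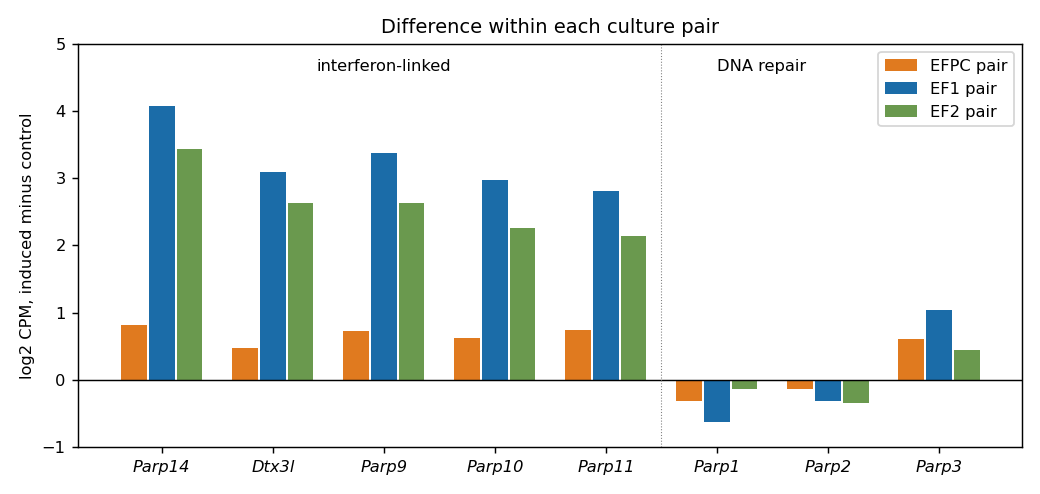
Difference of log2 CPM, induced minus control, within the EFPC, EF1 and EF2 pairs for each member; 1 library a side, so the bars carry no error. The EFPC bars of the interferon-linked genes reach 0.47 to 0.82, against 2.13 to 4.08 for the other pairs, while Parp1 and Parp2 lie below 0 in each pair.

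Levels can be compared between genes on the authors' TPM scale, which divides by transcript length. In induced cells the order of mean TPM was Dtx3l (111 ± 80.8), Parp1 (103 ± 34.0), Parp9 (83.9 ± 60.5), Parp10 (82.2 ± 61.1), Parp14 (76.4 ± 60.7), Parp2 (68.0 ± 12.9), Parp11 (44.1 ± 30.0) and Parp3 (11.7 ± 2.65, SD, n = 3 each), and the ranges of all neighbours in that order overlapped. This order of means was that of no single induced library. In induced EF1 and EF2 Parp1, at 90.2 and 76.7 TPM, lay below Dtx3l, Parp9, Parp10 and Parp14. Parp14 was nearly equal to Parp1 in induced EF2, at 77.4 TPM. In induced EFPC Parp1 came first at 141 TPM, followed by Parp2 at 82.3 TPM and Dtx3l at 29.3 TPM. In control cells Parp1 (126 ± 50.2 TPM) and Parp2 (76.1 ± 12.7 TPM) came first and overlapped. They stood clear of Dtx3l (19.3 ± 2.82 TPM), Parp10 (14.9 ± 2.75 TPM) and Parp9 (11.8 ± 0.352 TPM), of which neighbours overlapped. Parp11 (9.02 ± 0.991 TPM) lay below Parp9 without overlap, and overlapped with Parp14 (7.79 ± 1.55 TPM), which overlapped with Parp3 (6.79 ± 1.84 TPM).

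The summed TPM of the 5 interferon-linked genes came to 4.09, 2.90 and 0.410 times that of the 3 repair genes in induced EF1, EF2 and EFPC, against 0.321, 0.412 and 0.226 in control EF1, EF2 and EFPC. The repair genes thus held more of the transcripts in every control and in induced EFPC, and fewer in induced EF1 and EF2. The induced EFPC ratio lay within the range of the controls and above its own control.

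**Figure D3:**
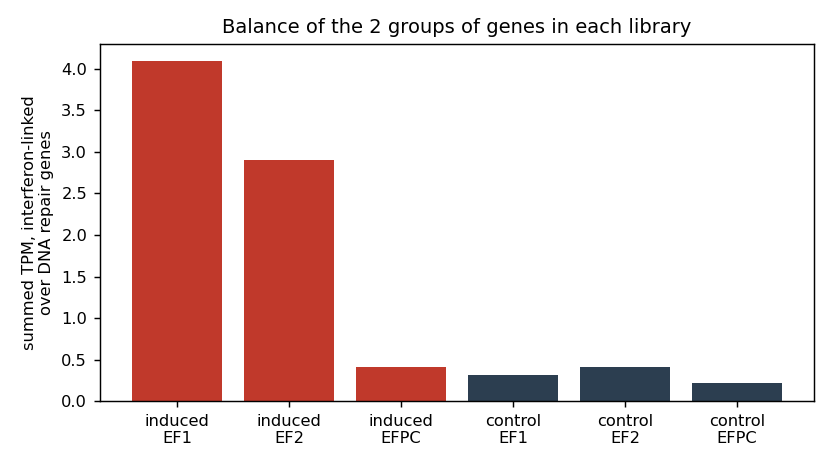
Summed TPM of the 5 interferon-linked genes over that of the 3 repair genes, 1 bar per library, induced libraries left of controls. The induced EF1 and EF2 bars stand at 4.09 and 2.90, and the induced EFPC bar at 0.410 is within the control range of 0.226 to 0.412.

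Parp14, Dtx3l and Parp9 are neighbours on chromosome 16. Within 500 kb of the start of Dtx3l, 12 genes were tested, and 9 of them are not members. None of the 9 was called higher by DESeq2, and 2 were called lower, where 4.25% and 2.65% of all genes tested were. Fam162a, a hypoxia-responsive gene (chr16:36043844-36071561), averaged 36.5 ± 4.07 CPM in induced and 69.2 ± 15.5 CPM in control cells (SD, n = 3 each; log2 fold change -0.91, DESeq2 adjusted p = 0.00428). Ccdc58 averaged 26.4 ± 1.80 CPM in induced and 39.7 ± 4.19 CPM in control cells (log2 fold change -0.58, DESeq2 adjusted p = 0.0209). Kpna1, a nuclear import gene and the next tested gene beyond Parp9, had a log2 fold change of -0.02 (DESeq2 adjusted p = 0.981), and Hspbap1, the next beyond Parp14, had -0.11 (DESeq2 adjusted p = 0.886). Of the tested genes in this window, the members were the 3 called higher.

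**Figure D4:**
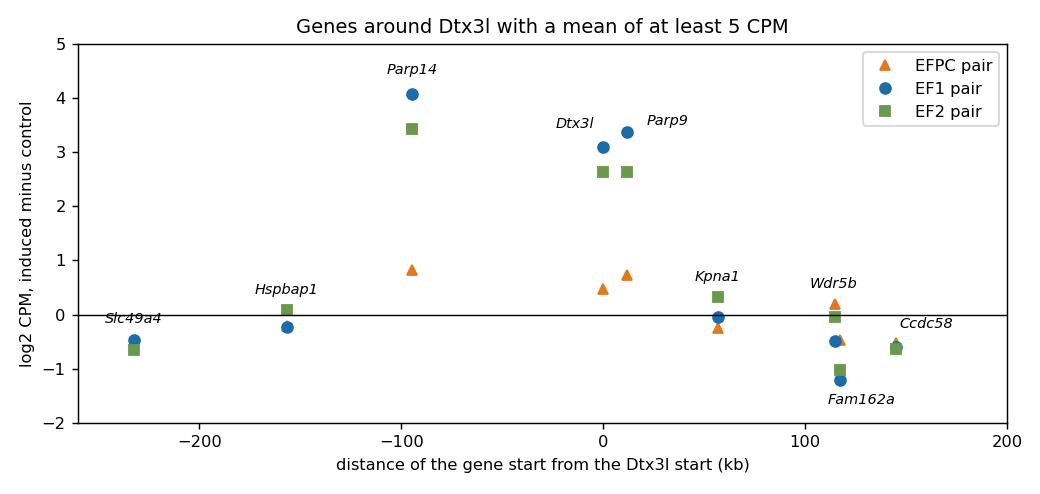
Difference of log2 CPM, induced minus control, in the EFPC, EF1 and EF2 pairs for genes around Dtx3l with a mean of at least 5 CPM, by the distance of the gene start from that of Dtx3l. Parp14, Dtx3l and Parp9 lie at 0.47 to 4.08, and the genes on both sides at 0.32 or below.

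Genes with the most similar pattern over the 6 libraries were found by the Euclidean distance between centred log2 CPM values, as a description. Nearest to Dtx3l were Stat2, Lif, Parp9, Uba7 and Socs3, at distances of 0.130 to 0.454 log2 units. Stat2, which encodes the interferon signalling factor, had 593, 357 and 78.7 CPM in induced EF1, EF2 and EFPC, against 64.0, 58.3 and 58.7 CPM in the controls. Nearest to Parp9 were Trim21, Uba7, Stat2, Sp100 and Trafd1, at 0.228 to 0.367. Uba7 encodes the activating enzyme for ISG15, and Trim21 a cytosolic antibody receptor. Nearest to Parp14 were Trim30a, Herc6, Trim34a, Nlrc5 and Trim34b, at 0.294 to 0.568. Trim30a and the Trim34 genes have close copies, whose reads may be shared.

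Of 6 tested STAT and IRF factors of the interferon response, 5 were called higher by DESeq2, where 4.25% of all genes tested were. Irf7 averaged 511 ± 474 CPM in induced and 9.15 ± 2.38 CPM in control cells (SD, n = 3 each; log2 fold change 5.82, DESeq2 adjusted p = 2.71e-04). Irf1 averaged 153 ± 141 CPM in induced and 20.1 ± 3.02 CPM in control cells (log2 fold change 2.95, DESeq2 adjusted p = 0.0322), and 0.0837 with the replicate block. The median log2 difference of these 6 factors was 0.44 in the EFPC pair, against 3.43 and 2.58 in the EF1 and EF2 pairs. By the edgeR test of the difference, all 6 had a smaller one in the EFPC pair, where 6.41% of genes tested did.

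The other 7 PARP family genes had a median log2 fold change of 0.58, and 1 was called higher by DESeq2, where 4.25% of all genes tested were. Parp4, the vault PARP gene, had 77.7, 64.5 and 59.9 CPM in induced EF1, EF2 and EFPC, against 40.7, 36.6 and 50.2 CPM in the controls (log2 fold change 0.68, DESeq2 adjusted p = 0.0303). With the replicate block DESeq2 called 3 of the 7 higher, where 6.4% of genes were. The block added Tnks, a tankyrase gene (log2 fold change 1.05 without the block, DESeq2 adjusted p = 0.0733 and 0.00695 with it), and Zc3hav1. Zc3hav1, which encodes the zinc-finger antiviral protein, had 576, 513 and 248 CPM in induced EF1, EF2 and EFPC, against 285, 274 and 229 CPM in the controls (DESeq2 adjusted p = 0.138, and 0.0350 with the block). The second tankyrase gene, Tnks2, had a log2 fold change of 0.00 (adjusted p = 0.997 by DESeq2). By the edgeR test of the difference, 2 of these 7 had a smaller one in the EFPC pair, where 6.41% of all genes did. They were Tnks (-1.23 log2 units) and Zc3hav1 (-0.85 log2 units). Tnks, Tnks2 and Zc3hav1 were chosen after their values were seen.

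Of all genes tested, DESeq2 called 4.25% higher and 2.65% lower. None of 3 tested deltex genes other than Dtx3l was called by DESeq2, with Dtx3 at 62.9 ± 11.5 CPM in induced and 64.1 ± 18.7 CPM in control cells and Dtx2 at 22.1 ± 1.82 and 18.4 ± 0.676 CPM (SD, n = 3 each). None of 11 tested erasers and readers of ADP-ribose, with the PARP1 cofactor Hpf1 among them, was called, and their median log2 fold change was -0.22. The highest of these by level, Macroh2a1, whose histone variant binds ADP-ribose, had a log2 fold change of -0.37 (DESeq2 adjusted p = 0.156), and Chfr, a ubiquitin ligase gene, averaged 105 ± 5.17 CPM in induced and 99.0 ± 1.87 CPM in control cells (SD, n = 3 each, DESeq2 adjusted p = 0.772). Induced libraries lay below all controls in 6 of these 11 genes, where 13% of all genes tested did.

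Of 9 tested genes of NAD supply and use, 1 was called higher by DESeq2. Over all genes tested 4.25% were called higher and 2.65% lower. Qprt, an enzyme gene of NAD synthesis from tryptophan, averaged 4.54 ± 1.40 CPM in induced and 1.95 ± 0.501 CPM in control cells (SD, n = 3 each; log2 fold change 1.24, DESeq2 adjusted p = 0.0120). Nampt, another of the 9, was not called (DESeq2 adjusted p = 0.173), and its groups overlapped. It had log2 differences of 1.45 and 1.25 in the EF1 and EF2 pairs, against -0.46 in the EFPC pair. For Nampt the EFPC difference minus that of the other pairs was -1.81 log2 units by edgeR. Nampt was chosen after its values were seen. None of 18 genes of base excision and single-strand break repair was called by DESeq2, a count close to those shares. Their median log2 fold change was -0.20. Induced libraries lay below all controls in 5 of these 18 genes, where 13% of all genes tested did. Lig1, a DNA ligase gene of the 18 whose groups overlapped, had a log2 fold change of -0.38 (DESeq2 adjusted p = 0.453). Apex1, which encodes the abasic site endonuclease, averaged 95.5 ± 18.6 CPM in induced and 141 ± 16.3 CPM in control cells (SD, n = 3 each, DESeq2 adjusted p = 0.120). With the replicate block it was the 1 gene of the 18 called lower (DESeq2 adjusted p = 0.00733), where 4.73% of genes were. Of 9 genes of nonhomologous end joining, Dclre1c, which encodes the nuclease Artemis, was the 1 called higher, at 35.7 ± 7.93 CPM in induced and 20.4 ± 1.44 CPM in control cells (log2 fold change 0.82, DESeq2 adjusted p = 0.0118). Its log2 difference was 0.53 in the EFPC pair, against 0.99 and 0.83 in the EF1 and EF2 pairs.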

How the data were processed

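Every test started from the authors' raw counts of reads per gene, and levels between genes used the authors' TPM. The submitters' processing notes list HISAT2, DESeq2 and mm10 with no version, and how reads were assigned to genes was not given in the sources used here. Beside these, the deposited table has the authors' FPKM, log2 expression values, mean normalised signal, Wald score, signed fold change and p-value columns, which entered no test. For the 8 members the deposited fold changes and adjusted p-values equal those by DESeq2 here after rounding. Parp14, for example, has a deposited fold change of 10.22. The DESeq2 calls of members with all 6 libraries thus repeat the deposited result. All counts are at least 1 in every library, so genes without reads in some library were not analysed here.

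Software was edgeR 4.0.16, DESeq2 1.42.0 and limma 3.58.1 under R 4.3.3. As main test, the quasi-likelihood test of edgeR was run after TMM scaling and filterByExpr (13260 genes tested), with the group as the only term, Benjamini-Hochberg adjustment over all genes tested and a threshold of 0.05. DESeq2 gave adjusted p-values for 13122 genes. Values per library are CPM after TMM scaling, with a prior count of 2 before log2. The edgeR and DESeq2 group tests and the edgeR test between pairs were checked on simulated data. Apart from the changes put in, simulated cultures of a group differed only by depth and random spread. That check therefore does not show how the tests behave with differences between cultures as in these data. Alternatives were DESeq2, limma-voom, DESeq2 size factors, 2 other filters, the replicate block, and leaving out each library or pair. Depth of 30970019 to 43177842 reads put every member at 270 reads or more per library, so counting error is small beside the spread between cultures.

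Induced and control libraries were paired here by the numbers and prefixes of the labels. Deviations of log2 CPM from the group mean correlated at 0.17, 0.34 and 0.35 between the induced and control libraries of EF1, EF2 and EFPC, and at -0.40 to 0.15 between libraries of different numbers. Centring within each group lowers the values between different numbers. Induced EF2 correlated with control EF1 at 0.15, close to the 0.17 of the EF1 pair. These correlations therefore do not show that EF1 and EF2 are rightly paired. The members and gene lists were chosen with earlier results of these data known. Named were all members, up to 3 called genes of each list by fold change or its 2 highest by CPM where none was called, and the 5 nearest genes in pattern; 1 gene that this rule names is not reported here. The naming rule used DESeq2 calls. The text also leads with DESeq2 calls because edgeR called 0 genes, a choice made with that count known. Older symbols were matched through the RefSeq gene table of GRCm38.p6, which matched 14205 of the gene IDs and gave the coordinates.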

Additional observations from a re-analysis of the deposited data

Results flagged for a closer look

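The size of the induced over control difference in the EFPC pair departed from that in the EF1 and EF2 pairs for the 5 interferon-linked members, by the edgeR test of the difference itself. The EFPC value minus the EF1 and EF2 value was -2.94 for Parp14, -2.40 for Dtx3l, -2.27 for Parp9, -1.99 for Parp10 and -1.74 for Parp11, in log2 units. By the same test, 2 of the 7 other PARP family genes and all 6 STAT and IRF factors also had a smaller difference there. Of all genes tested 6.41% did. The test rests on 1 EFPC pair and 1 residual degree of freedom.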

How the results depend on the processing

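The count of genes called was 0 by edgeR, 906 with DESeq2 and 1339 with the replicate block in DESeq2, and 0 with the replicate block in edgeR, limma-voom, DESeq2 size factors or another filter. Leaving out libraries in edgeR gave 0 to 2144 genes, with 892 without induced EFPC, 2144 without both EFPC libraries and 0 in the other such fits. Members called were 0 by edgeR, 5 with DESeq2 and 6 with the replicate block in DESeq2, and 0 to 5 when libraries were left out in edgeR. The DESeq2 count of members, 5 with all libraries, was 0 to 6 when libraries were left out, an alternative chosen after seeing the data. It was 3 without induced EF1 or control EFPC (Parp3 is 1 of the 3 without control EFPC), 1 without both EF1 libraries and 0 without both EF2 libraries, and the genes called by DESeq2 over the table were 60 and 139 in these last fits, against 2742 without both EFPC libraries. The median log2 fold change of the repair members was -0.36 to -0.15 and that of the interferon-linked members 1.82 to 2.93 when libraries were left out in edgeR. On the authors' TPM scale the EF2 value of Parp1, which is also the median of the repair members there, was 0.06 in place of -0.13. The replicate block changed the DESeq2 call of 1 member, Parp3, and of no other. The log2 fold change kept its sign in 26 fits for each of the 8 members. The 5 nearest genes in pattern stayed the same with a prior count of 0.5, and the motif match in Parp11 lies within the 250 bases before the start.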
